A study of Mus musculus with 2 samples.

Results

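The nuclear genes of respiratory complexes III, IV and V were compared between cultured mouse macrophages and osteoclasts, on 1 Affymetrix array each. The members were all genes whose probe sets carry a single symbol beginning with Uqcr, with Cox and a digit, or with Atp5, together with Cyc1 and Cycs, and 52 of the 18193 genes on the array met this rule. They comprised 9 genes of complex III, 25 of complex IV, 17 of complex V and Cycs, which encodes cytochrome c. Of these, 43 encode subunits, 8 encode assembly factors of complex IV and 1 encodes the carrier. The macrophage group was bone marrow of C57/Black6 mice aged 8 weeks, grown with M-CSF (macrophage colony-stimulating factor) for 3 days to give adherent progenitors and then with M-CSF alone for 6 days. The osteoclast group came from progenitors of the same kind, which received RANKL beside M-CSF for 6 days; RANKL is the signal that turns these cells into osteoclasts. Neither group carries a transgene or a deletion in the labels, which do not say how many animals were pooled or whether both cultures came from the same ones.

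Complexes III, IV and V sit in the inner mitochondrial membrane and form the last steps of oxidative phosphorylation. Complex III passes electrons from ubiquinol to cytochrome c, complex IV (cytochrome c oxidase) passes them on to oxygen, and complex V (ATP synthase) uses the resulting proton gradient to make ATP. Each is built from subunits of the nuclear genome and, for its core, subunits of the mitochondrial genome, with the help of assembly factors that do not remain in the finished enzyme. Osteoclasts are known for being rich in mitochondria.

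Values are linear probe set intensities, called signals here. Where a gene had several probe sets, the one with the highest average log2 signal stood for it. It counted as measured above the 40th percentile of all probe sets, the floor, which was 17.0 for macrophages and 14.4 for osteoclasts. Signals of the osteoclast array were lower at the median, with a median log2 difference of -0.43 over 23708 probe sets measured in both arrays, here called the shift. A difference is log2 of the osteoclast over the macrophage signal relative to this shift, and the deposited difference is 0.43 lower. With 1 array in each group there was no replicate, and no test or p-value could be given. The only error available was how far probe sets for 1 gene lay apart, with an SD of 0.49 over all genes and 0.38 over the 63 probe sets of the 25 members with several. A difference between 2 probe sets then has an SD of 0.70, used below to set members against each other. Variation between cultures or animals is not part of it.

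The array labelled osteoclasts carried the defining osteoclast markers: all 9 in the fixed list (Acp5, Ctsk, Mmp9, Calcr, Dcstamp, Ocstamp, Itgb3, Atp6v0d2 and Nfatc1) were higher there, with a median difference of 5.10. The 8 macrophage markers were measured in both arrays with a median of -1.80, so the labels matched the markers. Summed signals of other cell types also differed. They were 3887 in macrophages and 6675 in osteoclasts for 12 granulocyte genes, of which 10 and 11 were measured, and 11891 and 6025 for 6 stromal and osteoblast genes, of which 5 and 6 were measured. Those of 5 lymphoid genes were 685 and 230, with 3 measured in each array, those of 4 muscle genes 273 and 97.1, with 2 measured, and those of 2 erythroid genes 88.3 and 22.9, with 1 measured. Xist, an RNA of female cells, gave 1872 and 22.1, and the Y-linked gene Eif2s3y 0.571 and 321, so sex and treatment cannot be told apart. No member lies on X or Y. The granulocyte genes measured in both arrays had a median difference of 1.37 over 9 genes; Elane and Ctsg were below the floor in macrophages only, and Fcnb in osteoclasts only. The part of other cell types in the results below was not tested.

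Most members were higher in osteoclasts than the array as a whole. The median difference of the 50 members measured in both arrays was 0.63, against -0.017 for the 11469 genes measured in both, and the differences ran from -0.32 (Cox4i2) to 1.83 (Uqcrfs1). Of these 50, 47 (94.0%) lay above the shift, as did 48.8% of all genes. At least 1.5-fold higher were 27 members (54.0%) and 15.6% of all genes, and at least 2-fold higher were 12 members (24.0%) and 6.25% of all genes. No member was 1.5-fold or 2-fold lower, against 17.1% and 7.03% of all genes. The remaining 2 members, Cox8b and Cox7b2, were below the floor in both arrays, with signals of 2.31 and 4.42 and of 2.27 and 0.414, and have no fold.

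The dimness of the osteoclast array sets how large these values look. With no shift removed, 36 of the 50 members were above 0, against 21.6% of all genes, and their median was 0.20, against -0.45. Only Uqcrfs1 and Cox7a1, 2 members, then passed 2-fold, beside 2.53% of all genes. Centred on the medians of the arrays instead, 44 members were above 0, beside 35.9% of all genes, with Cox5a, Cox6a1 and Cox20 turning below it. After quantile normalization 46 members were above 0, beside 48.7% of all genes, with Cox6a1 at 0. Removing the shift, or centring on the medians, takes the same constant from the members and from all genes. The distance of the members' median from that of all genes could therefore not change between these scales, while the number past 2-fold depended on the scale.

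**Figure D1:**
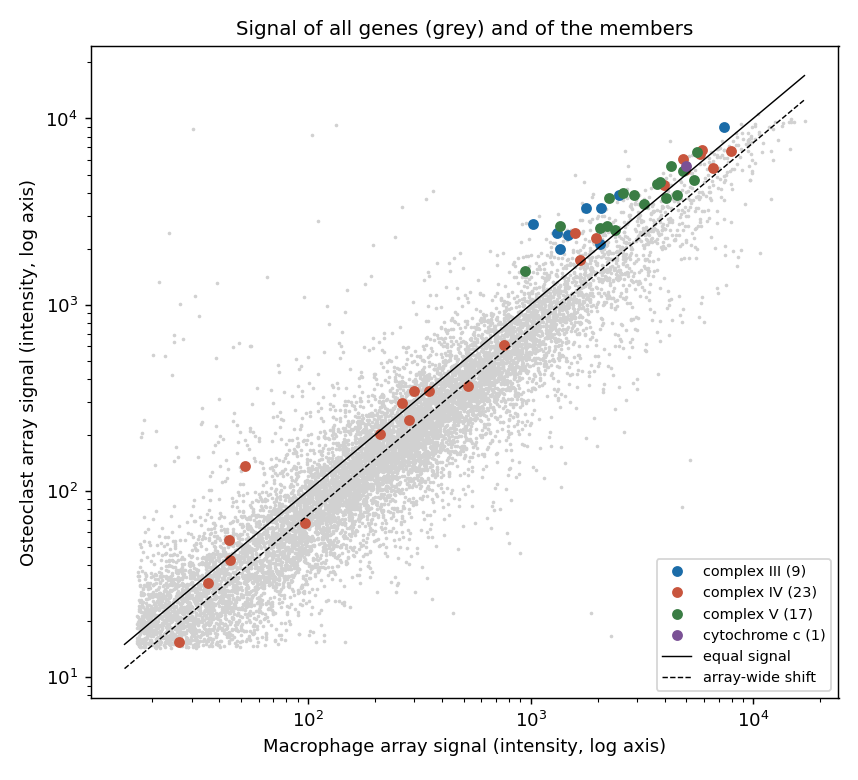
Signal in the osteoclast array (y axis, intensity, log axis) against the macrophage array (x axis, intensity, log axis) for the 11469 genes measured in both arrays in grey and the members in colour by complex; the solid line marks equal signal and the dashed line the shift of -0.43. The members lie above the dashed line, except Cox16, Cox8c and Cox4i2.

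Complex III stood furthest from the shift. All 9 subunits were measured and lay above it, with a median difference of 1.11 (0.67 as deposited). Past 2-fold were 6 of the 9, beside 6.25% of all genes, while as deposited 1 was, beside 2.53%. Uqcrfs1 encodes the Rieske iron-sulfur protein, which takes an electron from ubiquinol. It gave 1022 in macrophages and 2701 in osteoclasts, a difference of 1.83 and a 3.57-fold relative change, from its only probe set. Cyc1 encodes cytochrome c1, the subunit that hands the electron to cytochrome c, and gave 2062 and 3290, a difference of 1.11. Both nuclear-encoded redox subunits of the complex were therefore among the members at least 2-fold higher.

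The core proteins, which form the part of the complex in the matrix, gave unlike values by their chosen probe sets. Uqcrc2 gave 1772 and 3321, a difference of 1.34, and its other probe set gave 1.03. Uqcrc1 gave nearly equal signals of 2049 and 2120, a difference of 0.48 and the lowest of the complex. The gap of the pair, 0.86 on the log2 scale, was just above the SD of 0.70. Read from the other probe set of Uqcrc2, at 1.03, the gap falls under that SD. Each of these genes was read from a single chosen probe set, so the gap has no replicate behind it.

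The small subunits around this core were all higher relative to the shift. Uqcr10, a small subunit of the membrane part, gave 1320 and 2415, a difference of 1.30, with its 3 probe sets between 1.23 and 1.59. Uqcr11 gave 1477 and 2373 (1.12), and Uqcrh, the acidic hinge protein at the cytochrome c docking face, 2493 and 3893 (1.08), with another probe set at 1.43. Uqcrq lay just under 2-fold, with 1352 and 1991 (0.99). Its other 2 measured probe sets were dim and gave -0.45 and -0.14. Uqcrb, the brightest probe set of the complex, gave 7407 and 9001, a difference of 0.71, and its other probe set gave 0.77.

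Cytochrome c itself, the carrier between complexes III and IV, was higher by less. Cycs gave 4982 and 5535, a difference of 0.58, just under 1.5-fold. Its other 2 bright probe sets gave larger differences, with a median of 0.92.

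Complex IV had the lowest median of the 3 complexes. Of its 25 members, 23 were measured in both arrays, with a median difference of 0.50 (0.067 as deposited); 20 lay above the shift and 8 (34.8%) were at least 1.5-fold higher, beside 15.6% of all genes. The 2 at least 2-fold higher (8.70%) were a share near the 6.25% of all genes. The 15 measured subunits had a median of 0.58 and the 8 assembly factors one of 0.39. Because the signals of the subunits spanned from 15.5 to 7979, ubiquitous and tissue-restricted forms are described separately.

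Subunits that most tissues use, with signals over 1000 in both arrays, numbered 9, and all lay above the shift, between 0.14 and 1.04 with a median of 0.58. Cox7a2l, a relative of subunit 7a, had the highest value of these, with 1579 and 2414 (1.04). Its other 2 probe sets gave more, up to 1.37. Cox5b, which sits on the matrix side, gave 4830 and 6083 (0.77), with its 5 measured probe sets from 0.76 to 1.26. Cox8a gave 1973 and 2293 (0.65), Cox6b1, on the intermembrane side near cytochrome c, 5879 and 6776 (0.64), and Cox7a2 5774 and 6409 (0.58). Cox6c gave 3960 and 4370 (0.58), with another probe set at 0.083, and Cox4i1, the ubiquitous form of the subunit through which ATP acts on the enzyme, 4925 and 5318 (0.54). From Cox5b to Cox4i1 the differences spanned 0.22, well within the SD of 0.70.

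The lowest of the bright subunits were the only ones with a lower deposited signal in osteoclasts. Cox6a1, the form of subunit 6a outside muscle, gave 7979 and 6690 (0.18), and its other probe set 0.67. Cox5a, a subunit on the matrix side, gave 6622 and 5392 (0.14), with its other probe sets at up to 0.88. In both genes the sign as deposited turned between probe sets, so their rank within the complex is not settled. Cox7c, a subunit of most tissues, was read only from dim probe sets, the brighter at 44.4 and 54.4 (0.73).

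Tissue-restricted forms of complex IV subunits were dim in both arrays. Cox7a1, the heart and skeletal muscle form of subunit 7a, gave 52.3 and 136, a difference of 1.81, the second highest of all members, from its only probe set. Of the 4 muscle markers in the fixed list 2 were measured, and they differed in sign: Acta1 gave 222 and 60.4 (-1.44) and Ckm 34.7 and 34.9 (0.44). The part of muscle cells in the Cox7a1 value was not tested. Cox6a2, the muscle form of subunit 6a, gave 44.8 and 42.5 (0.36), and Cox6b2, a testis form, 35.5 and 32.1 (0.29). Cox8c, another testis form, gave 97.5 and 67.7 (-0.094), and Cox4i2, the form of subunit 4 used in lung and at low oxygen, 26.3 and 15.5 (-0.32). Signals of Cox4i2 lay in the range of background, under the 95th percentile of probe sets for odorant and pheromone receptors (28.2 and 25.7), genes not known to be used here.

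Assembly factors of complex IV lay nearer to the shift than the subunits. Of the 8, 7 (87.5%) were above it, beside 48.8% of all genes. At least 1.5-fold higher were 2 (25.0%), beside 15.6% of all genes. None was at least 2-fold higher, beside 6.25% of all genes, and with 8 genes this is near that share. Cox10 and Cox15 make heme A, the heme found in this enzyme alone, in successive steps. Cox15 gave 301 and 344 (0.63), with its 4 probe sets up to 1.08, and Cox10 gave 211 and 202 (0.38). Cox17 and Cox11 deliver copper, as does Cox19 in a supporting role, and gave 1666 and 1745 (0.50), 264 and 295 (0.59), and 350.0 and 345 (0.41). Cox18 moves the mitochondrially made subunit 2 through the membrane and gave 285 and 241 (0.19). Cox20, a chaperone of the same subunit, gave 762 and 606 (0.10). Cox16, which also acts in the maturation of that subunit, gave 524 and 367 (-0.079). Cox18, Cox20 and Cox16 were therefore the 3 lowest of the 8, and they were among the 5 with lower deposited signals in osteoclasts. Each had 1 probe set measured in both arrays and lay within the SD of 0.70 of Cox10, the next of the 8. Whether their rank goes with their work on subunit 2 was not tested.

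**Figure D2:**
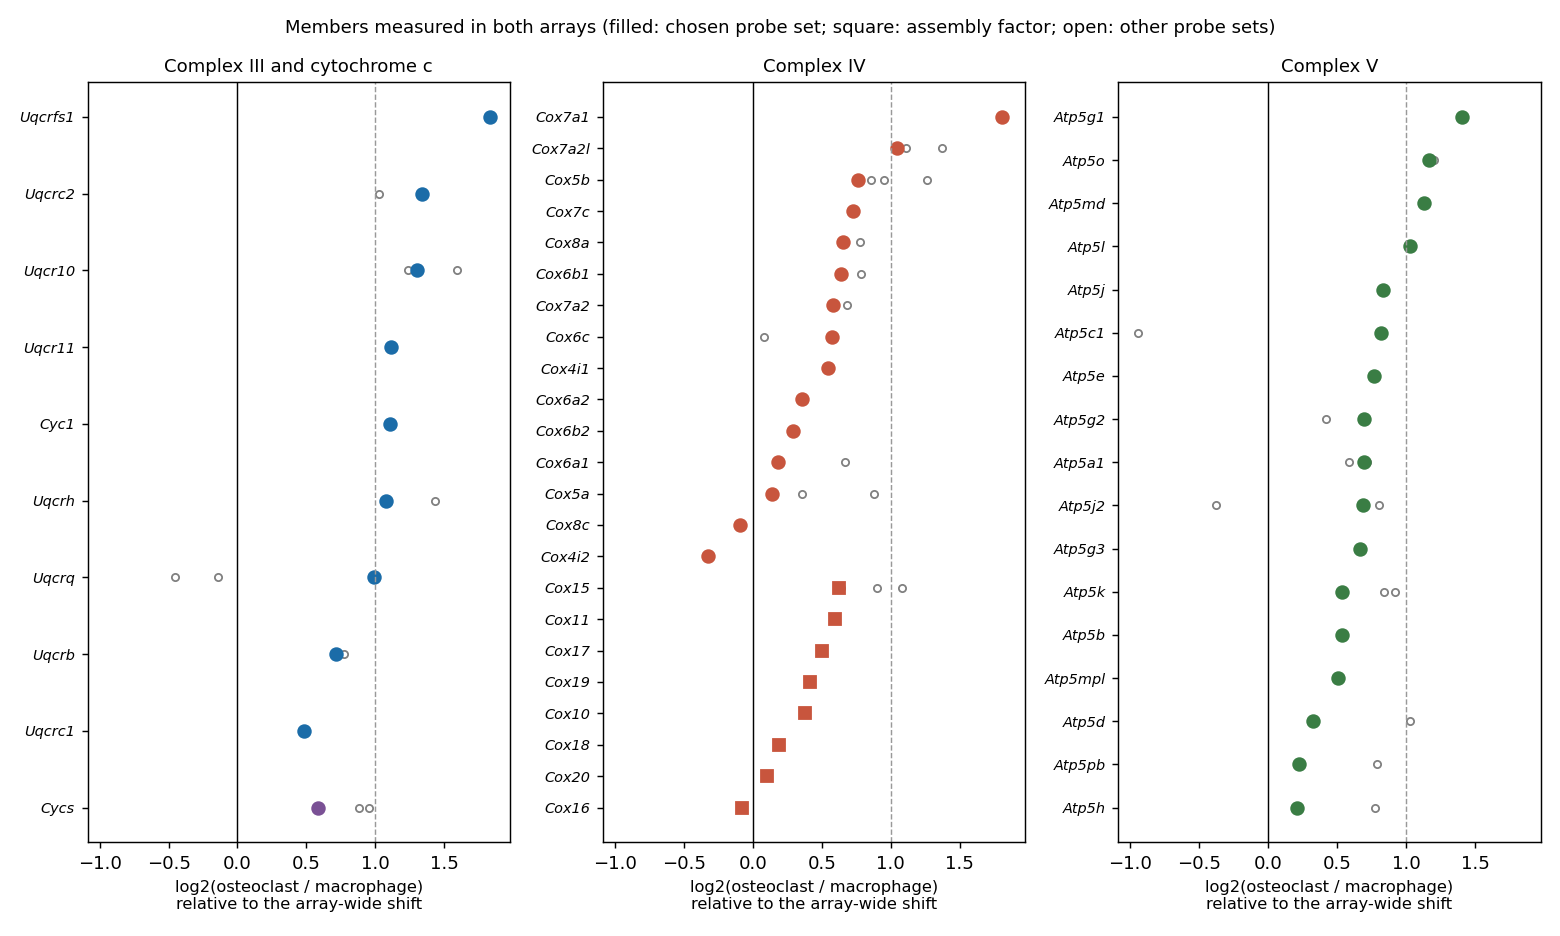
Difference of each member measured in both arrays (x axis, log2 of osteoclast over macrophage relative to the shift, no error bars as each group has 1 array), by complex; filled marks show the chosen probe set, squares the assembly factors, open circles other measured probe sets, and the dashed line 2-fold. Complex III subunits reach 1.83, whereas complex IV assembly factors run from -0.079 to 0.63.

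Complex V lay between the others. All 17 subunits were measured and above the shift, with a median of 0.69 (0.26 as deposited). At least 1.5-fold higher were 11 (64.7%), beside 15.6% of all genes, and at least 2-fold higher 4 (23.5%), beside 6.25%. As deposited 0 passed 2-fold, beside 2.53% of all genes, and with 17 genes this is near that share. In the catalytic head and central stalk, where ATP is made, the 5 genes ran from 0.32 to 0.81 with none at 2-fold. Atp5a1 and Atp5b, the alpha and beta subunits that bind nucleotide, gave 3804 and 4549 (0.69) and 4863 and 5205 (0.53). The stalk genes gave 4281 and 5577 for Atp5c1 (0.81), 2047 and 2581 for Atp5e (0.77) and 4057 and 3753 for Atp5d (0.32). The head and stalk spanned 0.49, less than the SD of 0.70. Atp5c1 had a dim probe set at -0.95, and Atp5d a second bright one at 1.03.

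The rotor ring in the membrane is made of subunit c, which 3 genes encode with the same mature protein behind different import sequences. Of these, Atp5g1 alone was at least 2-fold higher, with 1352 and 2655 (1.41), the highest value of the complex. Atp5g2 gave 2215 and 2652 (0.69), and Atp5g3 gave 5595 and 6579 (0.67). Atp5g1 exceeded Atp5g2 by 0.71 and Atp5g3 by 0.74, both just above the SD of 0.70, while Atp5g2 and Atp5g3 lay 0.026 apart.

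The peripheral stalk, which holds the head still against the turning rotor, held both high and low members. Atp5o, the subunit that confers oligomycin sensitivity, gave 2260 and 3759 (1.17), with its other probe set at 1.20. Atp5j, coupling factor 6, gave 2925 and 3865 (0.83). Atp5pb and Atp5h, the b and d subunits, gave 5413 and 4671 (0.22) and 4546 and 3883 (0.21), the lowest of the complex. The second probe sets of Atp5pb and Atp5h gave 0.79 and 0.77, so the low rank of this pair holds only for the brighter probe set.

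Small membrane subunits near the ring and the dimer interface were higher in graded steps. Atp5md gave 941 and 1524 (1.13) and Atp5l, subunit g of the dimer interface, 2615 and 3956 (1.03), both at least 2-fold. Atp5j2, subunit f, gave 3706 and 4427 (0.69), Atp5k, subunit e, 3240 and 3474 (0.53), and Atp5mpl 2393 and 2514 (0.50). Subunits e and g, which act together in forming dimers, differed by 0.50 here, under the SD of 0.70, and the other 2 probe sets of Atp5k were at 0.84 and 0.92.

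The probe set that is read mattered for many bright members. For 18 members with more than 1 probe set over a signal of 1000 in both arrays, the brightest probe set gave a smaller difference than the median of the others in 16, and the median gap, brightest minus others, was -0.19. Over all 311 genes with such probe sets this was so in 57.9%, with a median gap of -0.054. The largest gaps were in Atp5d (0.32 against 1.03), Atp5h, Atp5pb, Cox6a1 and Cox5a (0.14 against 0.62), and Uqcrc2 and Cox6c ran the other way. The rule of the highest signal therefore gives lower values for these 16 members than their other bright probe sets do, and what sets the probe sets apart was not tested.

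**Figure D3:**
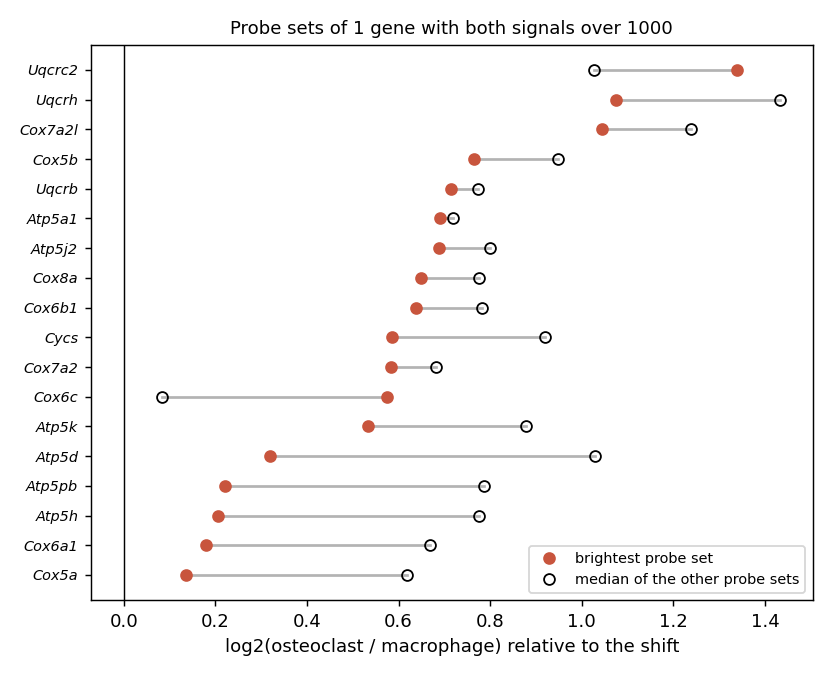
Difference (x axis, log2 of osteoclast over macrophage relative to the shift) of the brightest probe set (filled) and the median of the other probe sets (open) for 18 members with several probe sets over a signal of 1000. The filled point lies to the left for 16 of 18 genes.

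Signal level moved with the differences as well. Among members with a mean signal from 1000 to 3000 the median was 1.08 over 16 genes, and at 3000 and over it was 0.58 over 21 genes. The 13 members under 1000 all belong to complex IV, 7 of its assembly factors among them, and had a median of 0.36. The members' differences were thus highest in the middle range, and the low median of complex IV and of its assembly factors stands beside dim signals. All genes had medians of 0.029 from 1000 to 3000 and of 0.059 at 3000 and over. Complex III had 7 of its 9 members in the range from 1000 to 3000. Within it the medians were 1.12 for complex III, 0.95 for 6 members of complex V and 0.65 for 3 members of complex IV. At 3000 and over they were 0.89 for 2, 0.67 for 11 and 0.58 for 7 members. The order of the 3 complexes was the same in both of the brighter ranges, although complex III stood less far above each of the others than over all members.

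Genes that serve the same complexes but fall outside the naming rule were read from a fixed list. Of 29 further assembly and regulatory factors with a probe set, 28 were measured in both arrays, with a median difference of 0.36; 8 (28.6%) were at least 1.5-fold higher, beside 15.6% of all genes, and none was 1.5-fold lower. The 2 at least 2-fold higher (7.14%) were a share near the 6.25% of all genes. For complex IV the median of 18 was 0.46. Sco2, a copper carrier for the oxidase, gave 131 and 225 (1.21), while its relative Sco1 gave 75.9 and 79.5 (0.50). Surf1, an early assembly factor, gave 385 and 383 (0.42). For complex III the median of 5 was 0.22, and Bcs1l, which inserts the Rieske protein, gave 162 and 131 (0.13). Lyrm7, a chaperone of the same protein, was dim and above the floor in osteoclasts only, with 16.4 and 25.6. Ttc19, which acts on complex III after the Rieske protein is in place, gave 74.9 and 69.3 (0.32), with another probe set at 2.20.

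For complex V, Atpaf1 and Atpaf2, the chaperones of the beta and alpha subunits, gave 157 and 103 (-0.17) and 193 and 123 (-0.21). Atpif1, the inhibitor that stops the enzyme from consuming ATP, gave 3895 and 2508 (-0.20), and its 3 probe sets lay between -0.36 and -0.16. Fmc1, another assembly factor of the head, gave 153 and 268 (1.24), and Tmem70 656 and 777 (0.68). The inhibitor and both chaperones lay below the shift by their chosen probe sets, whereas each of the 17 subunits lay above it, but the other probe set of Atpaf1 gave 0.45. Ndufa4, first assigned to complex I and now placed with complex IV, gave 1889 and 3777 (1.43), higher than all members of complex IV except Cox7a1.

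The neighbouring complexes of the chain showed a like pattern. The 34 measured subunit genes of complex I, taken by the name Nduf without Ndufa4, had a median of 0.84, and 9 of them (26.5%) were at least 2-fold higher, beside 6.25% of all genes; the 8 assembly factors had a median of 0.51. The 8 genes of complex II and its assembly had a median of 0.65, with 2 (25.0%) at least 2-fold higher, beside the same 6.25%. As deposited, 0 genes of complexes I and II passed 2-fold, beside 2.53% of all genes, which is near that share. Thus in complexes I and IV alike the median of the assembly factors lay below that of the subunits. The assembly factors of complex I were also dimmer than most of its subunits, with signals from 82.5 to 808. The part of signal level in this order was not tested. The share of genes past 2-fold relative to the shift was highest in complex III of the complexes compared here, at 66.7%. As deposited, 1 of its 9 genes passed 2-fold. This describes these arrays and was not tested. None of the 13 protein genes of the mitochondrial genome had a probe set with a single symbol, and they are not analysed here.

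**Figure D4:**
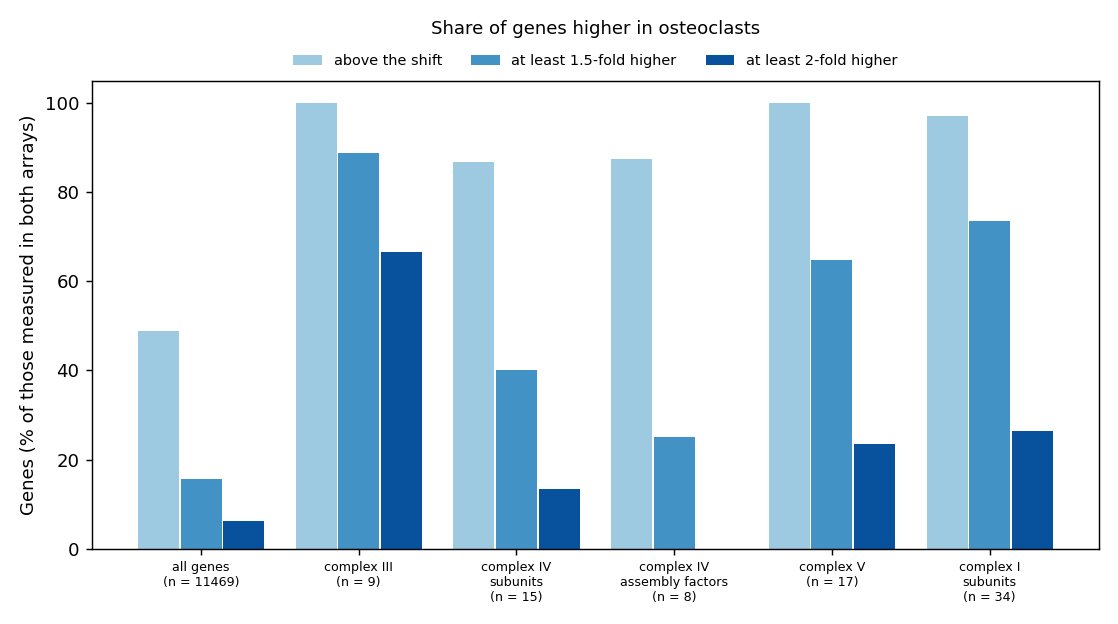
Share of genes measured in both arrays (y axis, percent) that were above the shift, at least 1.5-fold higher or at least 2-fold higher in osteoclasts, for all genes and for groups of the chain (x axis, number of genes in brackets). Relative to the shift, complex III has 66.7% of its genes past 2-fold, against 6.25% of all genes. As deposited 1 of its 9 genes is, against 2.53% of all genes.

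Transcription factors and coactivators known for acting on respiratory genes moved in different ways. Ppargc1b, a coactivator of the PGC-1 family, gave 49.0 and 625 (4.10), and its relative Ppargc1a was below the floor in both arrays. Esrra, the nuclear receptor ERR alpha, gave 205 and 256 (0.75), and Tfam, which packs mitochondrial DNA and acts in its transcription, 296 and 367 (0.74). Nrf1 gave 88.1 and 89.6 (0.46), Gabpa, the DNA-binding subunit of the ETS factor NRF-2, 521 and 289 (-0.42) with its other probe set at 0.34, and Yy1 1505 and 1069 (-0.061). Pprc1, a further relative of Ppargc1b, gave 399 and 233 (-0.34), and Esrrb 63.9 and 43.4 (-0.12). Gabpb1 gave 177 and 136 (0.046), with its other probe set at -0.93. Esrrg was above the floor in osteoclasts only, with 14.5 and 31.2. Of the 9 measured in both arrays, 3 (33.3%) were at least 1.5-fold higher, beside 15.6% of all genes, and their median was 0.046.

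Promoters of the members were searched for short letters that such factors are known to bind, on both strands. RefSeq windows on GRCm38.p6, from 250 bases before to 50 after a start site, were found for 39 of the 52 members, in 43 windows, beside 32851 windows of all genes. The ETS core CCGGAAG was in 37.2% of the member windows and in 8.86% of all. TGCGCA, the core of NRF-1 sites, was in 14.0% and 7.76%, AAGGTCA, the core of ERR sites, in 9.30% and 4.72%, and the YY1 letters AANATGGC in 14.0% and 6.05%. Member windows were also richer in G and C, with a median of 57.0% against 52.7%, and the part of base composition in these shares was not tested. Members with an ETS match had a median difference of 0.64 over 15 genes and those without one 0.68 over 22. The highest differences were 1.13 and 1.83. Within complex IV the match was in 71.4% of 7 windows of assembly factors and in 25.0% of 12 windows of subunits. The assembly factors also had the lower median difference, 0.39 against 0.58. Match and kind of gene are therefore mixed in the 2 medians, and whether a match goes with the difference was not tested within each kind.

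A window without any of the 4 matches is shown for the member with the largest difference (Uqcrfs1), beside windows with an ETS match from complexes III (Uqcr11, 1.12), V (Atp5l, 1.03) and IV (Cox8a, 0.65) and from an assembly factor near the shift (Cox20, 0.10). Each is read 5′ to 3′ on the strand of the gene, and capitals mark the matches.
Uqcrfs1, chr13:30545267-30545566, minus strand: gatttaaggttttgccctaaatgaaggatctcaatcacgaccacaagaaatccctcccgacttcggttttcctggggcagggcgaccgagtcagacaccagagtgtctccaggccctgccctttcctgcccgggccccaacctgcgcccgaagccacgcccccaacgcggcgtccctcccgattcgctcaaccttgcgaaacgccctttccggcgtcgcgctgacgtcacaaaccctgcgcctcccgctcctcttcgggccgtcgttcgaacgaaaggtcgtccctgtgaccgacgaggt
Uqcr11, chr10:80406772-80407071, minus strand: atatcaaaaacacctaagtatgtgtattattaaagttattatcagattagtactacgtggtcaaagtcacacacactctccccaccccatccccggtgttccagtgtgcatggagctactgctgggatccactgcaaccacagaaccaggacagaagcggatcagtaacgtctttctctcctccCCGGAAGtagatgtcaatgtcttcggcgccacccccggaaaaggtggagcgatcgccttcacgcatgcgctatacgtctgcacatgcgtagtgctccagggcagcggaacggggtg
Atp5l, chr9:44920693-44920992, minus strand: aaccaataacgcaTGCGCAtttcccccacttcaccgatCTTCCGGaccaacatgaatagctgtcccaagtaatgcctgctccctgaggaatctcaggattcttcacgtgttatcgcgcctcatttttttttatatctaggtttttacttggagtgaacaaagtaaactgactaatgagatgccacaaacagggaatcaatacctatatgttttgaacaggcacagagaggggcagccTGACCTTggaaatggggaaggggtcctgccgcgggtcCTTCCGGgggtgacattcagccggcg
Cox8a, chr19:7217567-7217866, minus strand: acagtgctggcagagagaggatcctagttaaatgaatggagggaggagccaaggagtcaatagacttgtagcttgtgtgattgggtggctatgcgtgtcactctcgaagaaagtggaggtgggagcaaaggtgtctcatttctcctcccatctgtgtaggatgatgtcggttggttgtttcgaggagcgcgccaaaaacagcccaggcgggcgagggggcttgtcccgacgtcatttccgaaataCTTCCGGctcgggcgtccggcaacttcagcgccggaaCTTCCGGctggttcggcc
Cox20, chr1:178318903-178319202, plus strand: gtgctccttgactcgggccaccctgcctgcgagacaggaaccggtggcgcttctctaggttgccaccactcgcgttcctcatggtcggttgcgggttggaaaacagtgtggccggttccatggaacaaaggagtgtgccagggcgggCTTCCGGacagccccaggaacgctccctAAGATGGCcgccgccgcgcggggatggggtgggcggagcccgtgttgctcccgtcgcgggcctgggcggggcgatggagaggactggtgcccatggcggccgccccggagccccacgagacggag
The match in Uqcr11 begins 66 bases before the start site. Atp5l holds 2 ETS matches, 1 of TGCGCA 237 bases before the start and 1 of AAGGTCA, on the other strand, 13 bases before it. In Cox8a an ETS match begins 5 bases before the start site and runs across it, and the other begins 32 bases after it. In Cox20 an ETS match lies 103 and a YY1 match 75 bases before it. Genes with such matches thus ranged from 2-fold higher to near the shift, and a match describes the letters, not a bound site.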

How the data were processed

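RNA of 2 cultures was labelled by the one-cycle Affymetrix protocol from 1 µg each, per the labels' protocols. The authors' deposited values are linear intensities of 45101 probe sets per array. The sources used here do not give how probes were summarised, corrected for background or scaled. Comparisons leave out 64 control probe sets. The platform annotation, which can be old, gave 34945 probe sets 1 symbol, 932 several and 9160 none; those with 1 were analysed. For this reason 1 probe set naming Cox14 with another gene stayed out. Deposited intensities were taken to log2, and the difference was set against the shift. No background was subtracted. Every member was accounted for by name, and each complex's highest and lowest differences were described. The members and lists were chosen with earlier results of these data known. The arrays' number limits the precision. Calculations used Python 3.11.15, pandas 2.3.3 and statsmodels 0.14.6, and were tested on simulated data. Alternatives covered scale, floor, filter, probe set rule and a pseudocount of 16.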

Additional observations from a re-analysis of the deposited data

How the results depend on the processing

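The 10 alternatives comprised 9 planned ones and a lowess curve on mean signal, added after the data were seen. Counts past a fold moved by over 1.5 times on 2 scales. Of the 12 members at least 2-fold higher, 2 were so as deposited and 5 after centring on the medians of all probe sets. The share of all genes fell too, from 6.25% to 2.53% and 4.24%. Of the 27 at least 1.5-fold higher, 12 and 15 were so, beside 6.04% and 10.1% of all genes, down from 15.6%. Both settings change only the constant removed. The other 86 values stayed within 1.5 times for counts or within the SD of 0.49 for medians. As deposited, medians nonetheless fell by 0.43, from 0.63 to 0.20 for all members, from 0.69 to 0.26 for subunits, from 0.50 to 0.067 for complex IV and from 0.39 to -0.039 for assembly factors, which turned the last below 0. In all 11 settings, the main one included, the median of complex III was above that of complex V, which was above that of complex IV. The median of subunits was likewise above that of assembly factors. The subunits were pooled over complexes III, IV and V, whereas all 8 assembly factors belong to complex IV, so kind and complex are mixed in this order. Within complex IV the medians were 0.58 and 0.39, read on the main setting only. As deposited and centred on the medians, only a constant changed, so neither order could move. With no filter, or raised to the floor, the medians behind both orders equalled the main ones. The count of settings is therefore not a count of independent checks, and all share the same 2 arrays. Complex III ranged from 0.67 to 1.12, complex V from 0.26 to 0.71 and complex IV from 0.067 to 0.54. The number of arrays limits every value, and background limits the members with signals under 100. No paired analysis was possible because each group has a single array.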
